A study of Sus scrofa with 17 samples.

Results

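Transcripts of the machinery that attaches the small protein ISG15 to other proteins, and takes it off again, were measured in 17 porcine kidneys at the end of machine perfusion. The members are 6 genes of the 26560 in the count table: ISG15, UBE2L6, HERC5, HERC6, TRIM25 and USP18. They were chosen by their place in the pathway and by their higher counts in G3 than in G1, so their values in that comparison are given as a description with no test. All 6 passed the filter on low counts in every comparison, with 71 to 15081 counts per kidney.

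The kidneys came from a slaughterhouse and from female wild type pigs of the Dutch Landrace breed, aged 6 months to 1 year, and each stands for 1 animal. All of them, G1 included, had 32 min of warm ischemia, then 24 h of hypothermic machine perfusion (HMP, in the cold) and 5 h of normothermic machine perfusion (NMP, at body temperature). The 5 kidneys of G1 received PBS in both perfusions, the 6 of G2 received extracellular vesicles of porcine urine progenitor cells (pUPC-EVs) in HMP only, and the 6 of G3 received pUPC-EVs in HMP and again in NMP. G2 therefore asks what vesicles in the cold leave behind, and G3 asks what a further injection in the warm adds. No kidney was transplanted, and RNA was sampled once, so G3 differs from G2 both in dose and in how recently vesicles were given.

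Type I interferon acts through the receptor chains IFNAR1 and IFNAR2, and transcription factors that include STAT2 and IRF9 then switch on interferon-stimulated genes, ISG15 and its enzymes among them. ISG15 is a relative of ubiquitin that is carried from the activating enzyme UBA7 to the conjugating enzyme UBE2L6 and is then placed on target proteins by a ligase. The protease USP18 removes it again, and it also docks on IFNAR2 and damps interferon signalling, so the same response raises both the conjugating enzymes and their brake.

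The genes lie on 5 chromosomes of Sscrofa11.1 by the RefSeq annotation: ISG15 at chr6:63363201-63364211, UBE2L6 at chr2:13354088-13368446, TRIM25 at chr12:33184039-33212440 and USP18 at chr5:70183321-70227990. The paralogous ligase genes HERC5 (chr8:130532256-130591158) and HERC6 (chr8:130594941-130665591) are neighbours, 3782 bases apart with 0 annotated genes between them. The study measured ISG15 by qRT-PCR as well, values not analysed here, and its primer pair is given here to mark the transcript followed.
ISG15 forward: atgatggcatcggacctgaa
ISG15 reverse: tgtcgttcctcaccaggatg

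Between 19270046 and 24736473 reads per kidney were assigned to genes, and 18813 to 21049 genes had at least 1 count. Levels are given as CPM (counts scaled to a common library size) after TMM scaling for library composition, and, since gene lengths were not used, they are compared between kidneys and not between genes. Markers of the labelled tissue were present: none of 6 proximal tubule markers was at 0, and their summed level ran from 5242 to 8463 CPM in G1, 5839 to 10888 in G2 and 6064 to 9479 in G3. The 11 leukocyte markers summed to 106 to 146 CPM in G1, 108.4 to 184 in G2 and 123 to 149 in G3, and none of them was at 0 in all kidneys, while the B cell marker MS4A1 ran from 0 to 23 counts per kidney. The macrophage marker CD68 held the most of this sum, with group means of 71.3 to 73.3 CPM. In G2 against G1, 6 of the 11 were higher, from -0.68 for CD8A to 0.72 for the monocyte marker CD14 on the log2 scale, with a median of 0.08. CD14 (SE 0.18, adjusted p = 0.840 in edgeR) was the 1 marker of the 11 that lay wholly higher in G2, where 0.105% of genes did, and CSF1R was at 0.49 (SE 0.25, adjusted p = 0.840 in edgeR). The endothelial marker PECAM1 was at 0.31 in G3 against G1 (SE 0.14, adjusted p = 0.813 in edgeR). Centred within groups over 17 kidneys, the sum of 4 markers of other tubule segments had r = 0.56 with the mean of the members. Most of this sum was UMOD, with group means of 3351 to 3602 CPM. Beside it SLC12A1 had 239 to 290, SLC12A3 272 to 341 and AQP2 40.7 to 64.6. The sum of 2 tubular injury markers had r = -0.50, that of 3 erythroid markers r = 0.44 and that of the leukocyte markers r = -0.05. The erythroid sum was almost all SLC4A1, with group means of 24.6 to 36.2 CPM, beside at most 0.60 for ALAS2 and 0.07 for AHSP. In G3 against G1 SLC4A1 was at 0.38, ALAS2 at -0.85 and AHSP at -1.34 (adjusted p = 0.813 for each in edgeR). The injury sum was almost all LCN2 (group means of 13.2 to 15.2 CPM), as KRT20 had 0 to 4 counts. In whole biopsies fewer cells of a type and less RNA per cell cannot be told apart, and the part of these cell types in the results was not tested. The 3 G2 kidneys 1, 3 and 6 and the 2 G3 kidneys 2 and 6 had the fewest genes detected (18813 to 19452), and the fold changes of the members and their correlations over all 17 kidneys are also given without them.

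ISG15 itself, the modifier that the other members handle, was higher in most vesicle-treated kidneys. In G1 it stood at 203, 150.4, 265, 336 and 241 CPM in kidneys 1 to 5. In G2 the kidneys 1 to 6 held 369.8, 319.6, 407, 225, 203 and 575 CPM, and in G3 they held 401.4, 389.6, 593, 273, 401.5 and 747 CPM. All G3 kidneys but number 4 lay above all of G1, G2 spread over the range of both, and no pair of groups was free of overlap. The group means were 239 ± 69.4 CPM in G1 (SD, n = 5), 349.9 ± 136 in G2 (SD, n = 6) and 468 ± 171 in G3 (SD, n = 6), so that the mean of G3 was 1.96-fold that of G1.

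UBE2L6, the conjugating enzyme that receives ISG15 from UBA7, ran from 11.4 to 28.6 CPM in G1 (median 23.2), from 14.0 to 55.4 CPM in G2 (median 22.2) and from 26.8 to 78.7 CPM in G3 (median 40.3). Its G2 kidneys were the most uneven of any member and group, with a coefficient of variation of 58.5%, because kidney 6 held 55.4 CPM while kidneys 2 and 5 held 14.6 and 14.0. The G2 median was below that of G1 although the G2 mean was 1.29-fold higher.

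The 3 ligases had 3 or 4 of 6 G3 kidneys above all of G2, where ISG15 had 2. HERC5, the main ligase for ISG15 in human cells, ran from 25.2 to 49.6 CPM in G1 (median 32.7), 32.0 to 55.1 in G2 (median 44.8) and 42.4 to 107 in G3 (median 72.0). HERC6, which takes that role in mice, ran from 56.5 to 132.8 CPM in G1 (median 96.6), 64.2 to 146.7 in G2 (median 102) and 132.3 to 283 in G3 (median 167). For both genes 5 of 6 G3 kidneys lay above all of G1 and 4 of 6 above all of G2.

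TRIM25, a ligase known both for ISG15 transfer and for activating the RNA sensor RIG-I, was the member whose G3 and G1 kidneys did not overlap. It ran from 44.3 to 75.9 CPM in G1 (median 69.0), 59.1 to 102.5 in G2 (median 65.9) and 83.0 to 143 in G3 (median 103). This was 1 member of 6, where 0.124% of the 25719 genes tested lay wholly higher in G3, and nothing is read from it since the choice of members used this contrast. The coefficients of variation of TRIM25 within groups were 20.6% to 24.7%, the lowest of the members in G1 and G3, while in G2 that of HERC5 was lower (21.7% against 23.0%).

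USP18, the protease that strips ISG15 from its targets and restrains the interferon receptor, followed another order of kidneys in G2. In G1 the kidneys 1 to 5 held 3.82, 3.24, 6.14, 10.8 and 7.65 CPM. In G2 the kidneys 1 to 6 held 11.5, 13.1, 7.48, 16.9, 3.75 and 8.93 CPM, and in G3 they held 12.4, 9.0, 18.0, 7.75, 13.5 and 18.3 CPM. G2 kidney 4, among the low kidneys for the other members, was the third highest of all 17 for USP18. USP18 was the least abundant in reads, with 71 to 457 counts per kidney, and counting error at its lowest count was 11.9%, against coefficients of variation between kidneys of 33.5% to 48.3%.

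**Figure D1:**
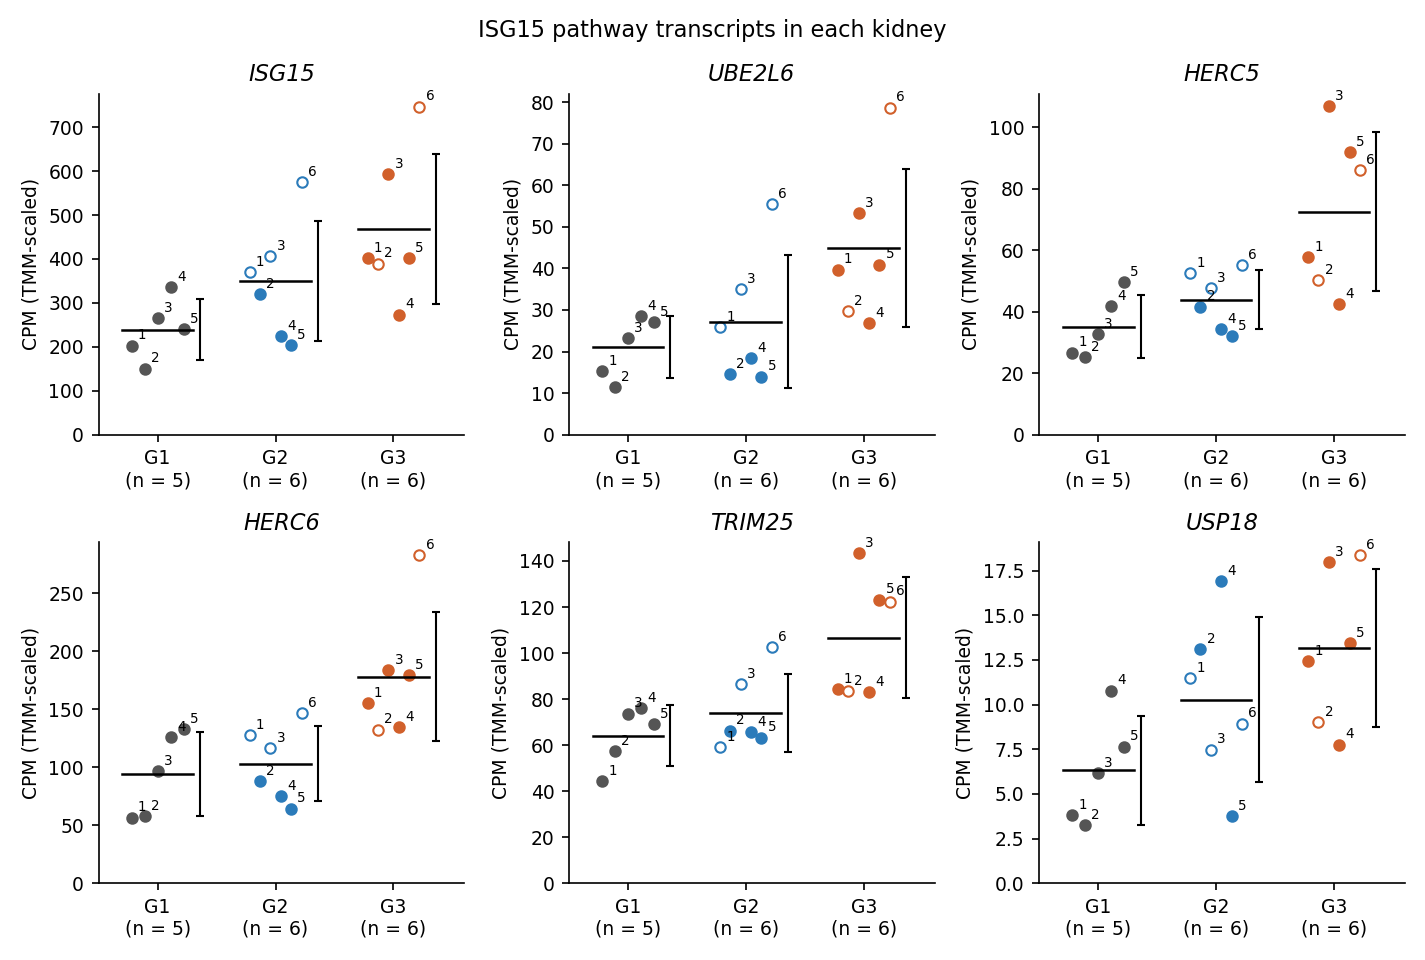
Level of each member in CPM (TMM-scaled) in the 17 kidneys by group, numbered within group, with the mean as a line and the SD as an error bar. Open symbols are the 5 kidneys with the fewest genes detected, and USP18 shows G2 kidney 4 near the top while that kidney is low for the other members.

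In G3 against G1, the contrast used for the choice, the members stood at 0.73 to 1.07. On edgeR's log2 scale the fold changes were 0.95 (SE 0.23) for ISG15, 1.07 (SE 0.27) for UBE2L6, 1.04 (SE 0.23) for HERC5, 0.91 (SE 0.24) for HERC6, 0.73 (SE 0.17) for TRIM25 and 1.05 (SE 0.29) for USP18. Their median was 0.99, beside -0.02 over all genes tested, and 2 of 25719 genes (0.00778%), BCAT2 and the unnamed ENSSSCG00000050204, both lower in G3, had an adjusted p under 0.05 in edgeR's quasi-likelihood test. Without the 5 kidneys with the fewest genes detected the median was 0.87, and the smallest of the 6 was 0.76.

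In G2 against G1, which shares the G1 kidneys with the choice, the members were spread from 0.13 to 0.70 on the log2 scale, with a median of 0.34 beside -0.01 over all genes. The highest were USP18 at 0.70 (SE 0.35) and ISG15 at 0.55 (SE 0.25), and the lowest were TRIM25 at 0.21 (SE 0.17) and HERC6 at 0.13 (SE 0.25). By edgeR's test 0 of 6 members had an adjusted p under 0.05 (0% of 25699 genes did), and by DESeq2 and limma voom also 0. An unadjusted edgeR p under 0.05 was reached by 1 member, ISG15 (0.0423 unadjusted, 0.840 adjusted, by edgeR), where 1.42% of genes reached it in the higher direction. In 0 of 6 members did G2 lie wholly above G1, where 0.105% of genes did.

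Leaving out the kidneys with few genes detected leaves the 3 G2 kidneys lowest for the mean of the members, and the members then went both ways. The median of the members against G1 was 0.03, ISG15 was at 0.06, and UBE2L6 and HERC6 turned to -0.43 (SE 0.26) and -0.31 (SE 0.26). USP18 alone of the 6 kept its size, at 0.84 (SE 0.41), with an adjusted p of 0.843 in edgeR. Leaving out 1 kidney at a time gave medians of 0.16 to 0.47. Without G2 kidney 6, UBE2L6 was at 0.03, TRIM25 at 0.09 and ISG15 at 0.35, and without G1 kidney 1 TRIM25 was at 0.10. Neither set of kidneys gave a called member.

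In G3 against G2 the added injection in NMP is the difference in treatment, and the G3 kidneys are shared with the choice. The paper reports lower IL18 in the HMP perfusate of G3 than of G2, before that injection. By its account LDH and lactate also seemed lower in G3 at the moment vesicles were given in NMP. Whether such earlier differences bear on the members was not tested. The members stood in another order here, and both this comparison and that of G2 with G1 use the G2 kidneys. HERC6 at 0.79 (SE 0.22), HERC5 at 0.73 (SE 0.21) and UBE2L6 at 0.72 (SE 0.32) led, TRIM25 followed at 0.53 (SE 0.18), and ISG15 at 0.42 (SE 0.26) and USP18 at 0.36 (SE 0.29) were last. Leaving out 1 kidney, ISG15 ran from 0.24 (without G3 kidney 6) to 0.62 and USP18 from 0.19 (without G2 kidney 5) to 0.56 (without G2 kidney 4). The median was 0.63 beside -0.00 over all genes. By edgeR 0 of 6 had an adjusted p under 0.05 (0% of 25701 genes did), and by DESeq2 and limma voom also 0. An unadjusted edgeR p under 0.05 was reached by 4 of 6 (HERC6 0.00199, HERC5 0.00309, TRIM25 0.00692 and UBE2L6 0.0373, each with an adjusted p of 0.948 in edgeR), where 1.61% of genes reached it in the higher direction. In 0 of 6 members did G3 lie wholly above G2, where 0.0584% of genes did.

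Without the kidneys with few genes detected, 4 G3 kidneys stood against 3 of G2. The 3 G2 kidneys left out are the 3 highest of G2 for the mean of the members (ranks 4, 7 and 8 of 17), so leaving them out enlarges the difference by itself. UBE2L6 was higher in G3 by 1.35 (SE 0.21, adjusted p = 0.0122 in edgeR) and HERC6 by 1.10 (SE 0.17, adjusted p = 0.0132 in edgeR), among 22 genes called in that smaller set. HERC5 at 1.05 (SE 0.24, adjusted p = 0.187 in edgeR), ISG15 at 0.74 and TRIM25 at 0.73 did not pass, and USP18 fell back to 0.19. This selection was made after the values had been seen, and nothing is read from these p-values.

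The sample codes in the labels fall into 3 runs, here series A, B and C, whose meaning the labels do not state. On log2 CPM the members were higher in G3 than in G1 within all 3 series, by 0.74 to 1.79 in A (1 kidney against 2), 0.14 to 0.45 in B (1 against 2) and 0.50 to 0.96 in C (4 against 1). G3 exceeded G2 by 0.02 to 1.03 in A and by 0.55 to 0.98 in C. G2 exceeded G1 by 0.31 to 1.77 in A, but in C the differences ran from -0.48 to 0.42, with UBE2L6 (-0.03), HERC5 (-0.27) and HERC6 (-0.48) below 0. In C that comparison is 4 kidneys against 1 of G1, and in A it is 2 against 2.

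Ratios between transcripts in the same kidney do not depend on library size and were used to ask whether the pathway changed in balance. In G3 against G1 the 7 log2 ratios differed by -0.22 to 0.17. HERC6 to ISG15 was lower in G2 than in G1 by 0.35 on the log2 scale (exact permutation test, two-sided, p = 0.0498) and higher in G3 than in G2 by 0.37 (exact p = 0.0173). The first of these ran from -0.46 to -0.21 leaving out 1 kidney (-0.21 without G1 kidney 5), and was -0.09 in series A and -0.90 in series C, where G1 is 1 kidney. UBE2L6 to ISG15 was higher in G3 than in G2 by 0.37 (exact p = 0.0368), with 4 of 6 G3 kidneys above all of G2, and by 0.24 without G2 kidney 2. After adjustment over the 14 tests of 7 ratios in 2 comparisons the smallest p was 0.232, so that 0 of 14 passed and 3 of 14 had an unadjusted p under 0.05 in the exact permutation test.

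The ratio of USP18 to ISG15 was widest in G2, where kidney 4 lay at -3.73. Its mean log2 value was -5.30 ± 0.33 in G1 (SD, n = 5), -5.13 ± 0.87 in G2 (SD, n = 6) and -5.14 ± 0.21 in G3 (SD, n = 6); whether the spreads differ was not tested. As a share of the reads of both genes, USP18 made up 1.85% to 3.11% in G1 and 2.26% to 3.24% in G3. In G2 the shares were 3.01%, 3.93%, 1.81%, 7.0%, 1.81% and 1.53% in kidneys 1 to 6. The 95% Clopper-Pearson interval of G2 kidney 4 was 6.33% to 7.71% and that of G2 kidney 6 was 1.31% to 1.78%, and both cover counting error only.

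**Figure D2:**
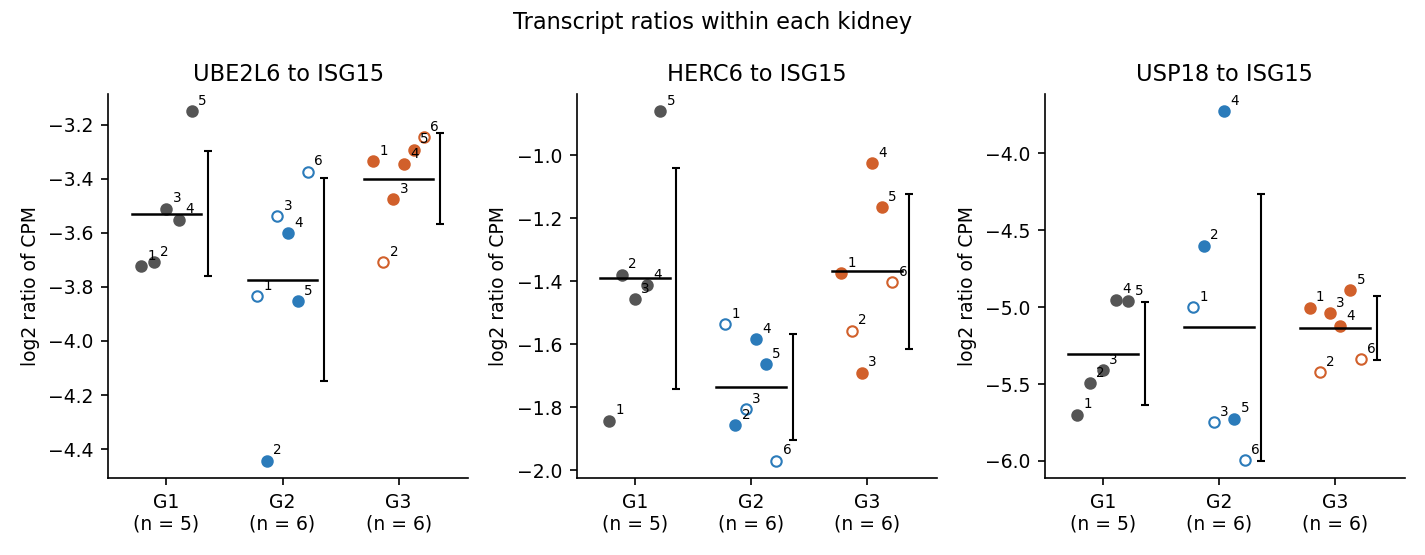
Log2 ratio of CPM of UBE2L6, HERC6 and USP18 to ISG15 in each kidney by group, with mean (line) and SD (error bar); open symbols are the 5 kidneys with the fewest genes detected. The USP18 ratio ran from -5.99 to -3.73 in G2 and from -5.42 to -4.89 in G3.

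How far the members followed each other between kidneys of the same group was described by correlation. With log2 CPM centred within groups over all 17 kidneys, the 15 pairs had Pearson r of 0.45 to 0.92, median 0.77, and 13 of 15 had an adjusted p under 0.05 (100000 permutations within groups). The 10 pairs without USP18 ran from 0.71 to 0.92, and the strongest was ISG15 with UBE2L6 (r = 0.92, Spearman's rho = 0.90, permutation adjusted p = 0.00015 for r and 0.0003 for rho, r = 0.86 without the 2 kidneys farthest from the median). The 5 pairs with USP18 ran from 0.45 to 0.63, and 3 of them passed. These values share each kidney's TMM scaling, and with scaling by library size only the median r of the 15 pairs was 0.62.

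Within G3 the members had r of 0.71 to 0.97 with each other over 6 kidneys, and 9 of 15 pairs passed. For USP18 there, its 5 pairs had r of 0.85 to 0.94, and all 5 had an adjusted p under 0.05 by the exact permutation test (smallest p possible 0.00139), as did 3 of 5 by Spearman's rho. Over the 15 pairs 7 passed by rho. In G3 the closest pairs were HERC5 with TRIM25 and UBE2L6 with HERC6, both at 0.97. Without the 2 kidneys farthest from the median the 15 values ran from 0.39 to 1.00, so that single pairs rest on the extreme kidneys.

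Within G2 the other 5 members had r of 0.54 to 0.99 with each other, of which 3 of 10 pairs passed (1 of 10 by Spearman's rho), and HERC5 with HERC6 reached 0.99 (exact permutation adjusted p = 0.0208, n = 6). Without the 2 kidneys farthest from the median the 10 values ran from -0.76 to 0.99. The 3 pairs that passed stayed high there, with HERC5 and HERC6 at 0.99, ISG15 and HERC5 at 0.93 and ISG15 and HERC6 at 0.90. Among the pairs that did not pass, UBE2L6 with TRIM25 turned from 0.84 to -0.76, so that this value rests on the extreme kidneys. UBE2L6 with HERC6 went from 0.89 to 0.84. USP18 had r of -0.11 to 0.22 with them, and 0 of its 5 pairs passed, nor had any an unadjusted p under 0.05 in the exact permutation test. Without the 2 farthest kidneys the 5 values of USP18 ran from -0.90 to 0.45, so that its values near 0 rest on the extreme kidneys. G2 kidneys 4 and 2 ranked 3 and 5 of 17 for USP18 and 10 to 15 for the other members. G2 kidneys 6 and 3 went the other way, with ranks of 10 and 13 for USP18 and of 2 to 11 for the others. Leaving out G2 kidney 4 moved the median r of the USP18 pairs over all kidneys from 0.56 to 0.78, while leaving out any other kidney gave 0.44 to 0.65. The difference between the G2 and G3 correlations was not tested.

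**Figure D3:**
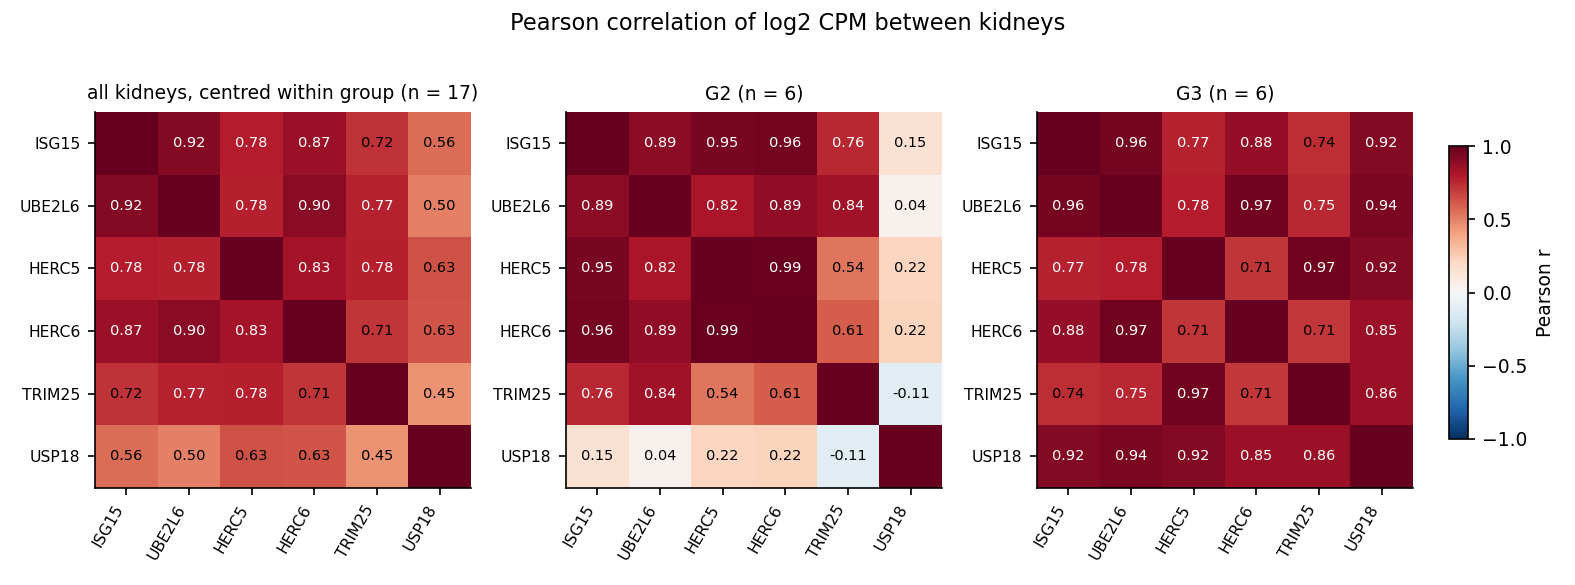
Pearson r of log2 CPM for each pair of members over all 17 kidneys centred within group, over the 6 kidneys of G2 and over the 6 of G3, on a colour scale from -1 to 1. The USP18 row is pale in G2 (-0.11 to 0.22) and dark in G3 (0.85 to 0.94).

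The number of genes detected moved with some members. Over the 17 kidneys centred within group, it had r = -0.62 with ISG15, -0.65 with UBE2L6 and -0.57 with HERC6 (permutation adjusted p over 8 relations = 0.0411 for each, Spearman's rho -0.53 to -0.60 with permutation adjusted p of 0.0718 to 0.0803). It had r = -0.25 with HERC5, -0.39 with TRIM25 and -0.14 with USP18, none of which passed. Without the 2 kidneys farthest from the median of genes detected, the r for ISG15 was -0.42, for UBE2L6 -0.46 and for HERC6 -0.39. The median r among the 15 member pairs was 0.74 after adjustment for genes detected and 0.77 without the 5 kidneys with the fewest.

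UBA7, the activating enzyme that begins ISG15 transfer, was outside the members and did not follow them. Its r to the mean of the members was -0.14 over the 17 kidneys centred within group. In G1 it held 4.73, 4.71, 5.10, 3.19 and 7.56 CPM in kidneys 1 to 5. In G2 the kidneys 1 to 6 held 2.11, 4.56, 1.98, 4.06, 4.47 and 1.95 CPM, and in G3 they held 15.3, 2.92, 20.9, 6.11, 17.9 and 2.14 CPM. G3 kidneys 1, 3 and 5 thus stood above all other kidneys, whereas G3 kidney 6, the highest of all 17 for the mean of the members, was among the lowest for UBA7.

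UBA7 moved with the number of genes detected more than any member did (r = 0.83, rho = 0.89, permutation adjusted p over 8 relations = 0.00072 for r and 0.00024 for rho, r = 0.79 without the 2 farthest kidneys). Its log2 fold change was 1.10 in G3 against G1 (SE 0.48, adjusted p = 0.813), -0.66 in G2 against G1 (SE 0.29, adjusted p = 0.840) and 1.77 in G3 against G2 (SE 0.47, adjusted p = 0.948), by edgeR. It was called by edgeR as higher in G3 than in G2 without the 5 kidneys with the fewest genes detected, a set chosen after seeing the data by the quantity that UBA7 follows, and nothing is read from that call.

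**Figure D4:**
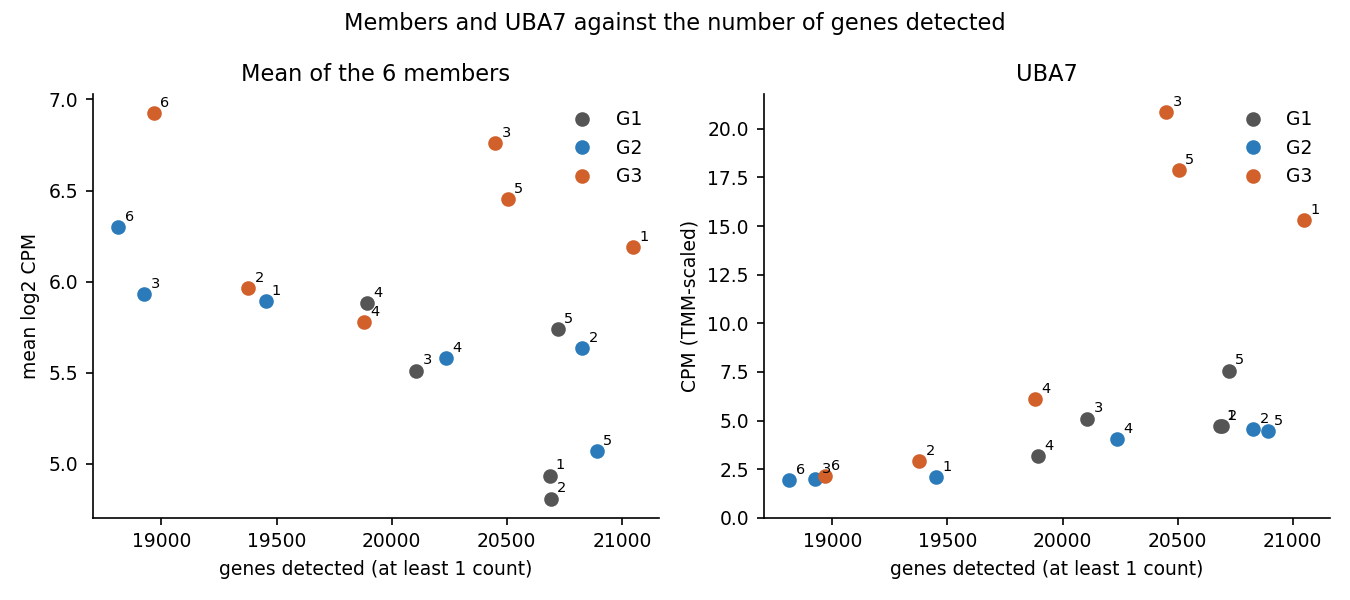
Mean log2 CPM of the 6 members and CPM of UBA7 in each kidney against the number of genes with at least 1 count, coloured by group and numbered within group. UBA7 was at 1.95 to 2.92 CPM in the 5 kidneys with the fewest genes, which include the top kidneys of G2 and G3 for the members.

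Other genes that take part in ISG15 traffic stood near 0 on the log2 scale in G3 against G1. In G3 against G1 the edgeR log2 fold changes were -0.08 for ARIH1, a ligase of ISG15 and ubiquitin, 0.00 for USP16 and -0.15 for USP21, proteases that can remove ISG15 besides other modifiers. They were -0.02 for ITGAL and -0.20 for ITGB2, the chains of the integrin LFA-1 that binds free ISG15 on lymphocytes. In the other comparisons USP21 was at -0.40 in G2 against G1 (SE 0.19, adjusted p = 0.840 in edgeR) and ITGB2 at -0.41 in G3 against G2 (SE 0.25, adjusted p = 0.948 in edgeR), and USP21 had r = -0.69 to the mean of the members over the 17 kidneys centred within group. With UBA7, 0 of these 6 genes had an adjusted p under 0.05 in G3 against G1 by edgeR, DESeq2 or limma voom. An unadjusted edgeR p under 0.05 was reached by 1 of 6, UBA7, where 1.94% of all genes reached it in the higher direction. In G2 against G1, UBA7 and USP21 were lower with unadjusted edgeR p of 0.0386 and 0.0478 (adjusted p = 0.840 for each in edgeR).

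Relatives of the members in the ubiquitin, HERC and TRIM families stood near 0. Of 18 such genes (ubiquitin and its activating enzymes, other HERC and TRIM ligases and other small modifiers) 8 were higher in G3 than in G1, the median was -0.02, and the range was -0.29 to 0.16. Beside HERC5 and HERC6, their family members HERC3 and HERC4 were at -0.01 (SE 0.13) and -0.23 (SE 0.15), and beside TRIM25, TRIM47 was at 0.13 (SE 0.15). By edgeR 0 of 18 had an adjusted p and 0 an unadjusted p under 0.05 in this comparison, and DESeq2 and limma voom called 0. UBE2L3, the nearest relative of UBE2L6, was not matched in the table by symbol.

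Upstream of the members lie the receptors and factors of interferon signalling. In G3 against G1, 14 of 17 were higher, with a median of 0.18, 0 of 17 had an adjusted p under 0.05 by edgeR, DESeq2 or limma voom, and 5 had an unadjusted edgeR p under 0.05 in the higher direction, where 1.94% of all genes did. IFNAR2, the chain that USP18 docks on, was at 0.37 (SE 0.10) with G3 wholly above G1, where 0.124% of genes lay so, STAT2 was at 0.47 (SE 0.17), IRF9 at 0.43 (SE 0.13) and IRF7 at 0.58 (SE 0.22), with adjusted p of 0.676 to 0.813 in edgeR. SKP2, which marks USP18 for degradation, was at -0.01 (SE 0.19). In G2 against G1, STAT2, IRF9 and IRF7 were at 0.05, 0.01 and 0.07, and IFNAR2 was at 0.28 (SE 0.12, adjusted p = 0.840 in edgeR).

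Genes of foreign nucleic acid sensing, for some of which TRIM25 is a partner, form a further list of 12 genes. It holds sensors and also proteins that act with them, such as the adaptor MAVS. In G3 against G1, 9 of 12 were higher with a median of 0.13, and 5 of 12 had an unadjusted edgeR p under 0.05 in the higher direction (1.94% of all genes did), while edgeR, DESeq2 and limma voom called 0. The highest were DHX58 at 1.02 (SE 0.25), RIGI, which encodes RIG-I, at 1.00 (SE 0.30), IFIH1 at 0.73 (SE 0.22), the DNA sensor CGAS at 0.70 and ZC3HAV1, a partner of TRIM25, at 0.63 (SE 0.20), with adjusted p of 0.460 to 0.813 in edgeR. The adaptor MAVS was at 0.02 (SE 0.12).

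The 19 other classical interferon-stimulated genes are listed here beside the members. In G3 against G1 19 of 19 were higher, with a median of 0.96 beside 0.99 for the members, and 17 had an unadjusted edgeR p under 0.05, where 1.94% of all genes did so in the higher direction. By edgeR 0 of 19 had an adjusted p under 0.05, DESeq2 called 8 and limma voom 0. Like the other lists, this one was drawn up with earlier results of these data known. The paper's own top-regulated genes for G3 against G1 include BST2, CMPK2, DDX60, IFI44, IFIT3, MX1 and XAF1. Nothing is therefore read from the counts in that comparison, and G3 against G2 shares the G3 kidneys with it. The smallest p belonged to BST2, the membrane tether of budding virions, at 2.08 (SE 0.33, adjusted p = 0.0721 in edgeR). In G2 against G1 their median was 0.22, but -0.21 without the 5 kidneys with the fewest genes detected and 0.04 with the replicate block. In G3 against G2 it was 0.86, with 15 of 19 at an unadjusted edgeR p under 0.05 in the higher direction, where 1.61% of genes were, and 0 called by edgeR, 2 by DESeq2 and 0 by limma voom.

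The interferon transcripts that could be matched were close to the detection limit. Of 7 interferon genes listed 4 were matched by symbol. IFNL1, IFNL3 and IFNW1 were not matched, and the list held no interferon alpha gene. IFNB1 had 0 to 20 counts per kidney and IFNG 1 to 13, and in G3 against G1 the 4 genes went both ways. IFNB1 was at 1.11 (SE 0.80) and IFNK at 0.87 (SE 0.82), while IFNE was at -0.98 (SE 0.56) and IFNG at -0.17 (SE 0.61), with adjusted p of 0.813 to 0.978 in edgeR. Of the 4 genes 0 had an unadjusted edgeR p under 0.05 between G3 and G1, and 0 were called by edgeR, DESeq2 or limma voom.

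**Figure D5:**
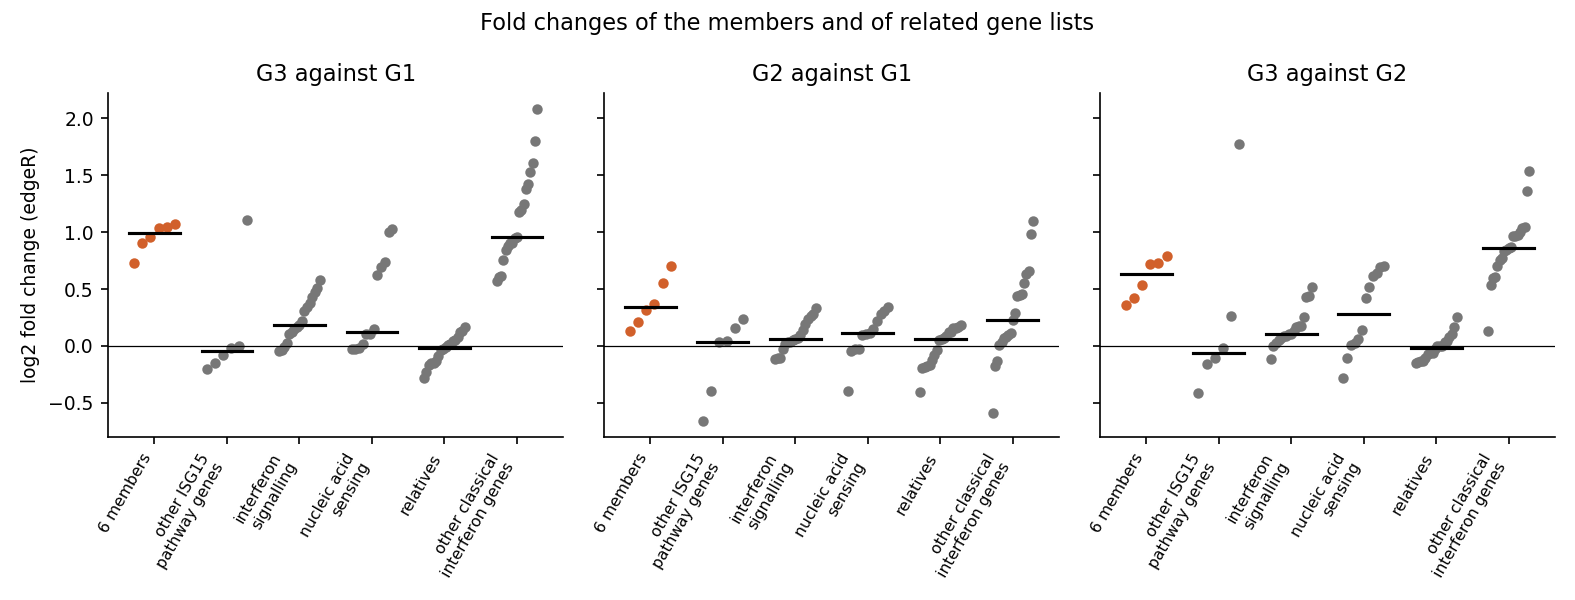
edgeR log2 fold changes of the 6 members (orange) and of the genes of 5 other lists (grey), sorted within list, in the 3 comparisons, with the median of each list as a line. The members lie at 0.73 to 1.07 in G3 against G1 and at 0.13 to 0.70 in G2 against G1, and the single high gene of the other ISG15 pathway list is UBA7.

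Among 13705 genes with a mean of at least 1 CPM, those whose pattern over the 17 kidneys, centred within group, was most like the mean of the members were MX1 (r = 0.94), DHX58 (0.93), KCTD12 (0.89), EPSTI1 (0.89) and CMPK2 (0.88). For comparison the median r over all these genes was 0.06, and 0.175% exceeded 0.8. For ISG15 alone the closest were EPSTI1 (0.94), C1orf116 (0.92) and MX1 (0.90). USP18 had other neighbours, BICDL1 (0.78), TUBA1B (0.78) and the unnamed gene ENSSSCG00000038663 (0.77), and 0% of genes exceeded 0.8 with it.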

How the data were processed

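Kidney RNA (RNA integrity numbers above 8.1 per the labels) was sequenced as 100-base reads after an Illumina stranded mRNA preparation. Reads were trimmed (cutadapt 4.0) and aligned by STAR 2.7.5a (Sscrofa11.1, Ensembl annotation release 108), and the table the authors deposited holds unnormalized counts for each gene. The counting program and its strand setting are not given in the sources used here. Their deposited DESeq2 comparison of G3 with G1 (base means, fold changes, errors and p-values) was not used. Symbols came from the reference tables, for 15093 of 26560 genes.

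Each comparison used the kidneys of its 2 groups and genes with at least 1 count, with edgeR 4.0.16 (R 4.3.3), TMM scaling and the quasi-likelihood test, Benjamini-Hochberg adjusted at 0.05. Standard errors are the fold change over the square root of F. Levels are CPM and log2 CPM (prior count 2) scaled over 17 kidneys. Ratios and correlations used permutation tests over kidneys (scipy 1.17.1). Alternatives were DESeq2 1.42.0, limma 3.58.1 voom, RLE or no scaling, other filters, a fit of all 3 groups, a replicate block, the code series and leaving out each kidney. In counts simulated for G3 against G1, with 200 of 24873 genes changed 2-fold, edgeR recovered 154 with 16 false calls. Those 200 were drawn only from genes with higher counts, and each gene was simulated independently of the others. The members and lists were chosen with earlier results of these data known. Named were the members, the 6 other ISG15 pathway genes, IFNAR2, STAT2, SKP2, relatives of members, the 4 smallest p of other lists and the most alike genes by correlation; single genes beyond this were named after their values were seen. Of the classical interferon list the 4 smallest p between G3 and G1 were BST2, IFI44 (log2 fold change 0.96), IFIT3 (1.61) and XAF1 (1.18). Levels per coding length were planned but not made, since no protein lengths were used here.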

Additional observations from a re-analysis of the deposited data

How the results depend on the processing

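The median log2 fold change of the members kept its sign in each comparison and setting tried, but in G2 against G1 it fell from 0.34 to 0.03 without the 5 kidneys with the fewest genes detected, where the SD between kidneys is 0.45. Genes called between G3 and G1 were 2 by edgeR, 31 by DESeq2 (25 without independent filtering), 1 by limma voom, 1 with filterByExpr, 1 for genes with 10 or more counts throughout, 0 in a joint fit of G1, G2 and G3, 9 with the replicate block and 11 with the code series. Leaving out 1 kidney gave 0 to 9: 0 without G1 kidney 1, G1 kidney 3, G3 kidney 2 or G3 kidney 5, 1 without G3 kidney 1 or 4, 4 without G1 kidney 4 and 9 without G1 kidney 5. Between G2 and G1 they were 0, but 1 by DESeq2 with or without filtering and 2 with the code series. Between G3 and G2 they were 0, but 3 by DESeq2 with or without filtering, 7 with the replicate block, 22 without the 5 kidneys with the fewest genes detected (chosen after seeing the data), and 0 to 5 leaving out 1 kidney, with 5 without G2 kidney 2.

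Of 76 other pathway genes, 0 were called between G3 and G1, but 8 by DESeq2, 7 without independent filtering, 2 with the replicate block and 0 to 1 leaving out 1 kidney. Between G3 and G2 they were 0, but 2 by DESeq2 with or without filtering, 3 with the replicate block and 8 without the 5 kidneys with the fewest genes detected, where 2 members were called as well. Otherwise 0 members were called in G2 against G1 or G3 against G2. The cause of these changes was not tested.

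HERC6 in G2 against G1 ran from -0.0057 to 0.29 leaving out 1 kidney and was -0.31 without the 5 kidneys, where UBE2L6 was -0.43. The log2 ratio of USP18 to ISG15 ran from -0.11 to 0.34 in G2 against G1 (-0.11 without G2 kidney 4) and from -0.18 to 0.28 in G3 against G2, where it was 0.0902 within code series. That of TRIM25 to ISG15 in G3 against G2 ran from -0.0020 to 0.19. The median correlation of 0.77 was 0.62 with library size only and 0.70 to 0.78 leaving out 1 kidney. Same-numbered kidneys came from different pigs and correlated at -0.19 to 0.42, with 3 of 16 pairs over 0.1, so the numbers do not pair them. By Dixon's test 0 of 42 sets of values held a kidney far from the rest. Counts were few at the matched interferon genes, with 0 to 20 for IFNB1. They were fewer still at the tubular injury marker KRT20 (0 to 4) and the erythroid marker AHSP (0 to 6).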
